A study of Mus musculus with 9 samples.

Results

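Gene expression was compared between regulatory T cells (Tregs) that carry wild-type TSLP receptor and come from Mi2 mice, called TSLPR WT Mi2 below, and control Tregs, called Ctl. Both kinds of cell were sorted by flow cytometry from lymph nodes that drain the skin, and the comparison rests on 2 libraries against 2 of the 9 in the series. The other libraries are 4 of epidermis and 1 of TSLPR-negative Tregs from Mi2 mice. The series addresses how keratinocytes act on Tregs. The headers of the Treg table call all 5 columns skinTreg, those of TSLPR WT Mi2 Mi2KO and those of Ctl WT, and the labels of these samples give no allele, Cre driver, age, sex or number of mice. The column taken as the TSLPR-negative library is headed TMDKO, which the labels do not spell out. It was matched because neither it nor that sample's title has a replicate number, so every value given for that library rests on an uncertain match. Nothing states that the 2 libraries of a group came from separate mice, so the p-values measure the spread between these libraries. That spread may be technical for TSLPR WT Mi2. The 2 Ctl libraries differed in chromosome Y transcripts, given below, and so were not repeats of 1 sample. The genes compared were the 11803 autosomal symbols whose normalized read count averaged at least 10 over the 5 Treg libraries, out of 24016 symbols in the table, each represented by its most abundant transcript. No measured change entered that choice, but Mi2 mice supply more of the averaged libraries than Ctl does. A gene present only in libraries of Mi2 mice can therefore pass.

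Tregs are CD4 T cells that hold back immune responses through the transcription factor FOXP3, high-affinity IL-2 receptor and inhibitory molecules such as CTLA-4. Activated Tregs leave a resting, lymph node-homing state, divide, and take on an effector state with receptors for skin and other tissues. TSLP is a cytokine made by keratinocytes that acts through a receptor built from CRLF2 (TSLPR) and the IL-7 receptor alpha chain and signals through JAK kinases and STAT5. Mi-2 beta is the ATPase CHD4 of the NuRD chromatin remodelling complex.

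The libraries held 21849381 and 32238992 reads for Ctl and 29314512 and 25973974 for TSLPR WT Mi2, as recovered from the value of 1 read in each column. A normalized read count here is the authors' count scaled so that all 5 libraries share 1 total. All 5 libraries carried the Treg markers. Foxp3, which lies on chromosome X and served only as this check, was at 11159 and 15371 in Ctl against 13778 and 14517 in TSLPR WT Mi2 (adjusted p = 0.755 in limma). The Treg and T cell markers Cd4 (adjusted p = 0.18), Cd3e (adjusted p = 0.183), Il2ra (adjusted p = 0.217), Ikzf2 (adjusted p = 0.839) and Tnfrsf18 (adjusted p = 0.403) did not pass the test either. Ctla4, the remaining marker of this check, did pass and was higher in TSLPR WT Mi2, with its values given below. Chd4, the gene of Mi-2 beta, was at 11757 and 15129 in Ctl Tregs against 12374 and 13659.5 in TSLPR WT Mi2 Tregs, and these ranges overlapped.

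Crlf2, the specific chain of the TSLP receptor (chr5:109983728-109988012, minus strand, mm9), was at 395 and 742 normalized reads in Ctl against 816 and 715 in TSLPR WT Mi2, beside 51.5 in the TSLPR-negative library. The receptor transcript was therefore present in all 4 libraries compared, at overlapping levels, and the difference did not pass the test (log2 change 0.49 ± 0.30, adjusted p = 0.24). Il7r, the other chain, was at 13149.5 and 4762 in Ctl against 16939 and 5188 in TSLPR WT Mi2. In each group the first library was far above the second.

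Transcripts of the sex chromosomes did not match between the groups. Xist, made by cells with 2 X chromosomes, was at 25266 and 8678 in Ctl against 19.4 and 6.97 in TSLPR WT Mi2, and 11903 in the TSLPR-negative library. Ddx3y, on chromosome Y, was at 7.10 and 736 in Ctl against 2378 and 1688 in TSLPR WT Mi2. Ctl library 1 thus had Xist and almost no reads from chromosome Y, Ctl library 2 had both, and the TSLPR WT Mi2 libraries had chromosome Y reads and almost no Xist. The sex make-up of the libraries moves with the groups, and the effect of sex on autosomal genes and the effect of the Mi2 mice cannot be told apart in this design. Of 403 tested genes on chromosomes X and Y, 99 were called, beside 3284 of 11803 autosomal genes (27.8%). No gene on chromosome X or Y enters the counts of called genes below. Summed reads of gene lists cover all members in the table. They include 1 gene on these chromosomes in each of the mitosis, S phase, effector, core Treg and B cell lists.

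At a Benjamini-Hochberg adjusted p under 0.05 in limma, 1744 of the 11803 genes (14.8%) were higher in TSLPR WT Mi2 Tregs and 1540 (13.0%) were lower, which is 27.8% in all. Of these, 1194 rose and 929 fell at least 2-fold. The median log2 change of all genes tested was -0.007. In every called gene the 2 libraries of one group lay on the same side of both libraries of the other, as they did in 65.7% of all genes tested. A value alone in parentheses after a gene name is its log2 change, TSLPR WT Mi2 minus Ctl, and changes given after "rose by" or "fell by" are on the same scale. Where a gene's adjusted p is given without 1 library, it is the largest over such fits. Leaving out another library could end the call too. Jak1 and Dnajb4 lost their calls whichever library was left out. Stat5b, Tm7sf2, Hmha1, Mbd2 and Myc lost theirs in all such fits but 1. Without Ctl library 2, which carried both Xist and chromosome Y reads, 1403 genes were higher and 1110 lower. Without Ctl library 1 the counts were 1406 and 1128. In bulk libraries like these, fewer cells of a type and less RNA per cell cannot be told apart.

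**Figure D1:**
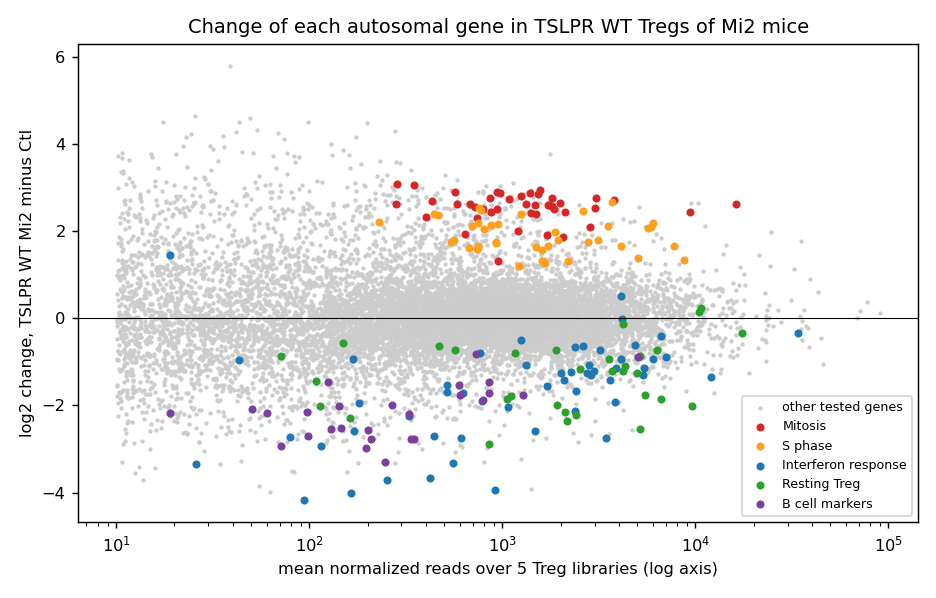
Log2 change of each of the 11803 autosomal genes (vertical axis) against its mean normalized reads over the 5 Treg libraries (horizontal axis, log scale), 1 point per gene. All 43 tested mitosis genes (red) and all 39 tested S phase genes (orange) lie above 0, the 26 tested B cell markers (purple) lie below 0, and so do 52 of 54 interferon response genes (blue) and 30 of 32 resting Treg genes (green).

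Genes of cell division rose. All 39 tested genes of DNA replication and S phase and all 43 tested genes of mitosis were called higher, with median log2 changes of 1.80 and 2.60, where 14.8% of the autosomal genes tested were higher. These counts were the same when any single library was left out. The normalized reads of the mitosis genes summed to 32723 and 17857 in Ctl and to 136567 and 139014 in TSLPR WT Mi2, a ratio of the group means of 5.45. For the S phase genes the sums were 42161 and 36432 against 125704 and 149515, a ratio of 3.50.

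In S phase, Rrm2 and Rrm1 encode the subunits of ribonucleotide reductase, which makes the building blocks of DNA. Rrm2 was at 1379.8 and 773 in Ctl against 6531 and 6579.9 in TSLPR WT Mi2 (log2 change 2.67 ± 0.25, adjusted p = 8.67e-06). Rrm1 was at 2379 and 1971 in Ctl against 8797 and 10912 in TSLPR WT Mi2 (log2 change 2.18 ± 0.21, adjusted p = 9.53e-06). The Ctl and TSLPR WT Mi2 values of both genes lay far apart. Uhrf1, which carries DNA methylation through replication (2.45), and Lig1, the ligase that joins Okazaki fragments (2.11), rose by similar amounts. The helicase subunit Mcm5 and the sliding clamp Pcna, which were named after their values were seen, rose by 2.07 and 1.32.

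Among mitosis genes, Cdk1, the kinase that drives entry into mitosis (chr10:68799383-68815660, mm9), was at 462 and 275 in Ctl against 2562 and 2952 in TSLPR WT Mi2 (log2 change 2.94 ± 0.25, adjusted p = 7.45e-06). The kinases Aurkb (2.88) and Plk1 (2.89) and the cytokinesis regulator Racgap1 (2.75) rose alongside. Mki67, the common marker of dividing cells, and the topoisomerase Top2a (2.44) were named after their values were seen. Mki67 was at 6258 and 3122 in Ctl against 27384 and 26727 in TSLPR WT Mi2 (log2 change 2.61 ± 0.28, adjusted p = 1.57e-05). Within Ctl, library 1 was the higher of the 2 for all of these mitosis genes.

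The promoter of Mcm5 is shown because the S phase genes moved together. RefSeq promoter windows (GRCm38.p6, from 250 bases before to 50 after the transcript start, matched by symbol) were searched on both strands for the E2F motif, spelled TTTCGCGC or TTTGGCGC, a motif chosen after the changes were known. A match was found in 10 of the 33 called S phase genes with a window (30.3%) and in 2 of 34 called mitosis genes (5.88%), beside 0.929% of all 27025 genes with a window. A match describes letters only. The 250 bases before the Mcm5 start, chr8:75109259-75109508 on the plus strand, hold 2 overlapping matches, 1 on each strand, in capitals.
Mcm5: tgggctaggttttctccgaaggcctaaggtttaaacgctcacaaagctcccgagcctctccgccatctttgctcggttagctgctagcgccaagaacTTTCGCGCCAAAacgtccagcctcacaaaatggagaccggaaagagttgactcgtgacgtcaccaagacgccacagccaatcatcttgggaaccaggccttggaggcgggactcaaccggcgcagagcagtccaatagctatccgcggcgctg

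Inhibitors and drivers of the G1 phase were higher or not called. Of 19 tested genes, 10 were called higher and none lower, with a median log2 change of 0.75, and leaving out single libraries gave 8 to 10. With all libraries 52.6% of the list was higher, beside 14.8% of all autosomal genes tested. Cdkn2a, which encodes the INK4A and ARF proteins, was at 16.6 and 8.82 in Ctl against 186 and 152 in TSLPR WT Mi2 (log2 change 3.69 ± 0.43, adjusted p = 2.98e-05). Cdkn2c, another INK4 inhibitor, rose by 2.30, and the phosphatase Cdkn3 by 2.85. Cdk6, a kinase that these INK4 proteins bind, rose by 1.90. Cdkn1a, the p21 gene, was named after its values were seen and was at 58.0 and 52.1 in Ctl against 380.1 and 183 in TSLPR WT Mi2 (log2 change 2.24 ± 0.37, adjusted p = 0.000474). The D cyclins, Cdkn1b and the pocket protein genes on the list were not called.

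Some genes of energy metabolism rose. Of 30 tested glycolysis and hypoxia genes, 12 were higher and 1 lower (median 0.50), and 6 were higher without TSLPR WT Mi2 library 2. The 12 higher were 40% of the list, beside 14.8% of all autosomal genes tested. The glycolytic enzyme Tpi1 was at 996 and 942 in Ctl against 3169 and 4412 in TSLPR WT Mi2 (log2 change 1.95 ± 0.22, adjusted p = 2.19e-05). The lactate exporter Slc16a3 rose by 1.38, the oxygen sensor Egln3 by 2.04, and Ldha and Hk2, both named after their values were seen, by 1.09 and 1.32. Pdk1, a kinase that inhibits pyruvate dehydrogenase, was the gene that fell (log2 change -1.16 ± 0.20, adjusted p = 0.000654). Of 44 tested oxidative phosphorylation subunits, 17 were higher (38.6%, beside 14.8% of all autosomal genes tested) and none lower (median 0.57). Sdhd (1.14), Atp5g3 (1.0), Uqcrfs1 (0.94) and Ndufb7 (0.93) were among these 17. That count was 4 without Ctl library 1, also 4 without TSLPR WT Mi2 library 2, and 3 without the intensity trend in limma, which ties the spread of a gene to its level. Leaving out Ctl library 1 took the adjusted p to 0.0776 for Ndufb7, and without the intensity trend it was 0.0657 for Ndufb7.

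Counts of higher biosynthesis genes lay on either side of the 14.8% of all autosomal genes tested. Ribosome biogenesis had 5 of 36 genes higher (13.9%; Gar1 0.95, Wdr12 0.94, Cad 0.88, Nhp2 0.89 and Lyar) and 1 lower, with 9 higher without TSLPR WT Mi2 library 1, 0 without library 2 and 2 without the intensity trend. The gene that fell was Myc, the transcription factor that drives the list, at 3367 and 3271 in Ctl against 1774 and 2596 in TSLPR WT Mi2 (log2 change -0.63 ± 0.22, adjusted p = 0.0468), a call that edgeR (adjusted p = 0.0621) and DESeq2 (adjusted p = 0.0518) did not make. Cholesterol and fatty acid synthesis had 2 of 27 higher (7.41%), Pmvk (0.89) among them, and 2 lower, Tm7sf2 (-1.16) and Scd1. Scd1, a desaturase that makes monounsaturated fatty acids, was at 1118 and 492 in Ctl against 143 and 227 in TSLPR WT Mi2 (log2 change -2.04 ± 0.36, adjusted p = 0.000773). The unfolded protein response had 6 of 32 higher (18.8%) and 1 lower, and 3 higher without Ctl library 1. They included the asparagine synthetase Asns (2.32), the sensor Atf6 (1.11), the chaperone partner Sdf2l1 (1.17) and Derl3 (1.31). Heat shock genes had 1 of 18 higher (5.56%), Hsp90aa1 (0.76), and 1 lower, Dnajb4 (-0.80). Without Ctl library 1 the adjusted p rose to 0.189 for Dnajb4, without Ctl library 2 it was 0.109 for Tm7sf2, without TSLPR WT Mi2 library 1 it was 0.445 for Myc and 0.143 for Derl3, without TSLPR WT Mi2 library 2 it was 0.0744 for Gar1, 0.114 for Wdr12, 0.224 for Cad, 0.257 for Nhp2, 0.16 for Pmvk and 0.358 for Hsp90aa1, and without the intensity trend it was 0.0865 for Cad, 0.0854 for Nhp2, 0.147 for Myc, 0.117 for Hsp90aa1 and 0.0587 for Dnajb4.

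**Figure D2:**
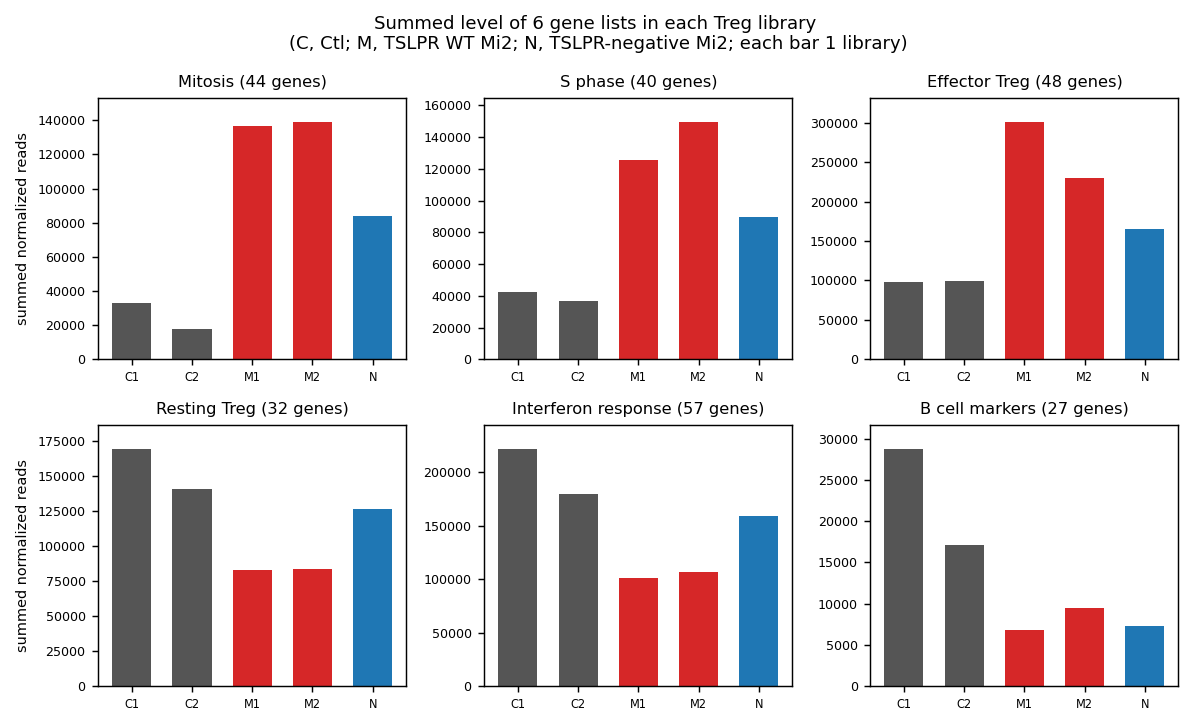
Summed normalized reads (vertical axes, from 0) of all members in the table of 6 gene lists, in each Treg library (horizontal axes; C, Ctl; M, TSLPR WT Mi2; N, TSLPR-negative Mi2), 1 bar per library and no error bars. Mitosis sums are 32723 and 17857 in Ctl and 136567 and 139014 in TSLPR WT Mi2, while interferon response sums are 221758 and 179649 against 101307 and 106965.

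Most effector genes of Tregs rose. Of 46 tested effector genes, 29 were higher and 4 lower, with a median log2 change of 1.14, and leaving out single libraries gave 24 to 30 higher and 3 or 4 lower. The 29 and 4 genes were 63% and 8.7% of the list, beside 14.8% and 13.0% of all autosomal genes tested. The list's reads summed to 98123 and 99217 in Ctl and 301147 and 230058 in TSLPR WT Mi2. Lgals3, the lectin galectin-3, was at 363 and 188 in Ctl against 3851 and 3304 in TSLPR WT Mi2 (log2 change 3.77 ± 0.28, adjusted p = 3.58e-06). Klrg1, a receptor of terminally differentiated effector cells, was at 767 and 574 in Ctl against 4314 and 3738 in TSLPR WT Mi2 (log2 change 2.60 ± 0.22, adjusted p = 7.13e-06). Ctla4, the inhibitory receptor (chr1:60965869-60972676, mm9), was at 13178 and 9247 in Ctl against 40010.5 and 23058 in TSLPR WT Mi2 (log2 change 1.46 ± 0.28, adjusted p = 0.00132). Icos, the costimulator next to it on chromosome 1, was at 12404 and 8399 in Ctl against 52580.0 and 31079 in TSLPR WT Mi2 (log2 change 1.99 ± 0.28, adjusted p = 0.000123). For the last of these genes and for Ctla4, TSLPR WT Mi2 library 1 lay well above library 2, and both lay above Ctl.

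The calcium-binding protein S100a6 (2.24) and the membrane-binding Anxa2 (2.55) rose in both libraries. Granzyme B, Gzmb, the cytotoxic protease, was at 869.8 and 452 in Ctl against 2624 and 2144 in TSLPR WT Mi2 (log2 change 1.92 ± 0.28, adjusted p = 0.000153). Several more were named after their values were seen. Havcr2, the inhibitory receptor TIM-3, was at 420.1 and 259 in Ctl against 2246 and 1734 in TSLPR WT Mi2 (log2 change 2.58 ± 0.26, adjusted p = 1.17e-05), and galectin-1, Lgals1, rose by 2.11. The cytokine gene Il10 was at 47.3 and 42.5 in Ctl against 67.9 and 69.7 in TSLPR WT Mi2 and did not pass (adjusted p = 0.257). The repair factor Areg was at 54.4 and 40.9 against 86.4 and 48.8 and did not pass either (adjusted p = 0.486). The memory marker Cd44 was at 3484 and 3451 against 4896 and 4591 (adjusted p = 0.103). The genes that fell on this list were Cd83, Cd86, Ctsw and Nkg7.

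**Figure D3:**
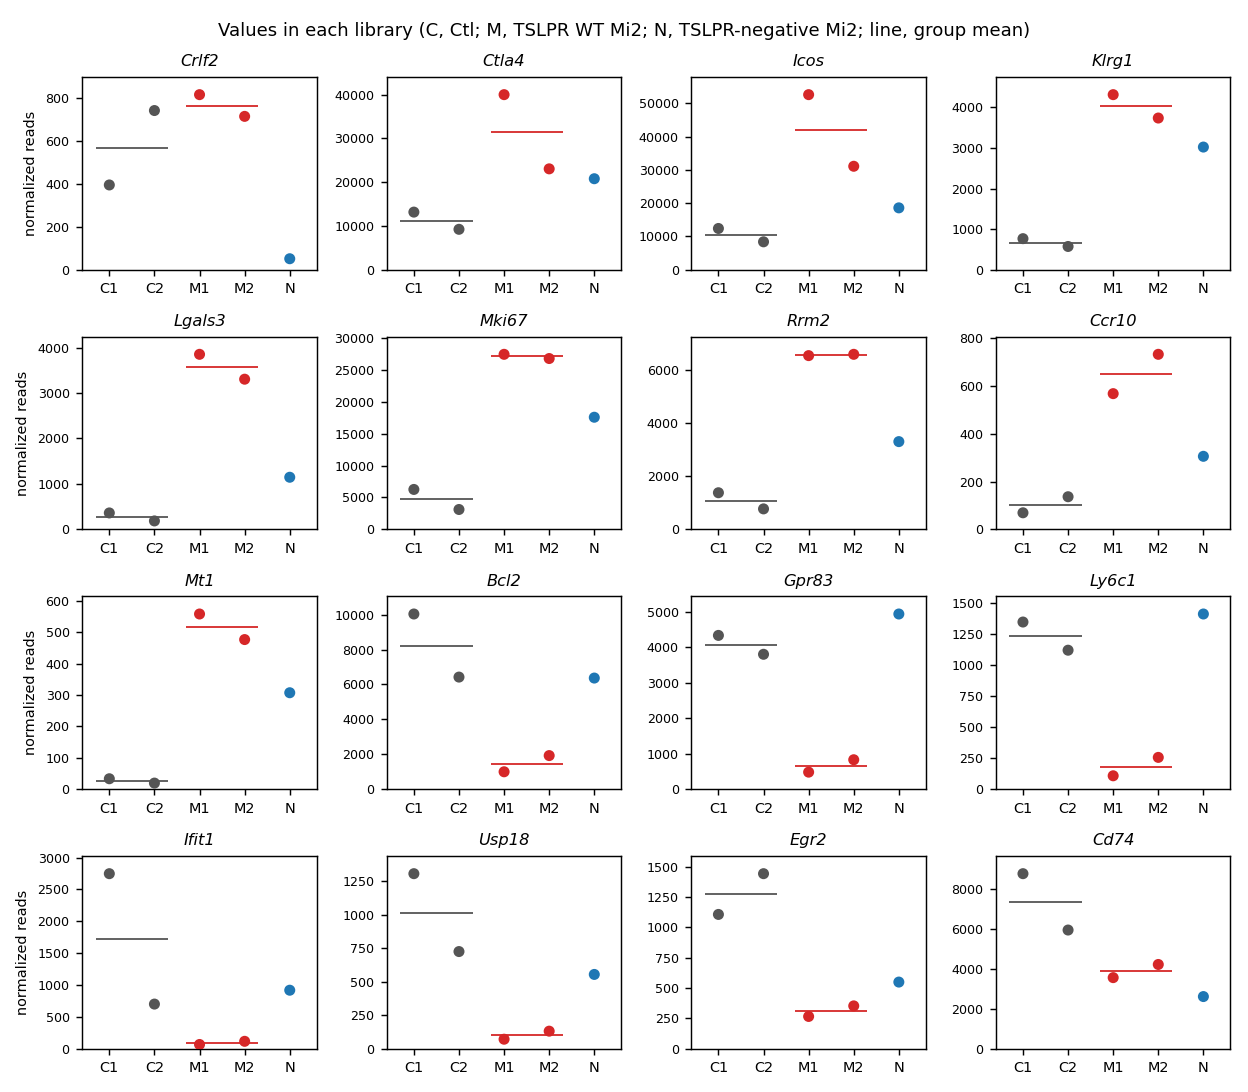
Normalized reads (vertical axes) of 16 genes in each Treg library (horizontal axes; C, Ctl; M, TSLPR WT Mi2; N, TSLPR-negative Mi2), with a line at each group's mean. Crlf2 overlaps between Ctl and TSLPR WT Mi2, while Ctla4, Icos, Klrg1, Lgals3, Mki67, Rrm2, Ccr10 and Mt1 lie higher in both TSLPR WT Mi2 libraries and Bcl2, Gpr83, Ly6c1, Ifit1, Usp18, Egr2 and Cd74 lie lower.

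Factors that shape Tregs in tissues were mostly higher. Of 30 tested members, 16 were higher and 1 lower (median 0.84), and leaving out single libraries gave 12 to 18 higher. The 16 higher were 53.3% of the list, beside 14.8% of all autosomal genes tested. Prdm1, the gene of the repressor BLIMP-1, was at 1390.5 and 1035 in Ctl against 6492 and 4629 in TSLPR WT Mi2 (log2 change 2.19 ± 0.23, adjusted p = 1.46e-05). Bcl6, a repressor that opposes BLIMP-1, was the member that fell, from 554 and 752 in Ctl to 57.3 and 135 in TSLPR WT Mi2 (log2 change -2.86 ± 0.36, adjusted p = 5.37e-05). Pparg, a nuclear receptor known from fat tissue Tregs, was at 5.92 and 11.2 in Ctl against 85.5 and 184 in TSLPR WT Mi2 (log2 change 3.78 ± 0.49, adjusted p = 6.61e-05). Il1rl1, the IL-33 receptor ST2, was at 1330.1 and 751 in Ctl against 3420.4 and 1636 in TSLPR WT Mi2 (log2 change 1.24 ± 0.32, adjusted p = 0.00987). Rora rose by 1.67 and Irf4 by 1.02, and Batf and Ahr, named after their values were seen, by 1.28 and 1.46. Gata3, the type 2 lineage factor, was at 1880.4 and 2046 in Ctl against 2282 and 1900.3 in TSLPR WT Mi2, ranges that overlap. In fits without TSLPR WT Mi2 library 1 the adjusted p was 0.0833 for Il1rl1, and without the intensity trend it was 0.0959 for Il1rl1.

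On the core Treg list, 14 of 28 tested genes were lower (50%, beside 13.0% of all autosomal genes tested) and 5 were higher (17.9%, near the 14.8% of all), with a median of -0.54. Reads of the list summed to 196192 and 198247 in Ctl and 229320 and 182112 in TSLPR WT Mi2, ranges that overlap. The count of higher genes was 3 without Ctl library 1 and 2 without TSLPR WT Mi2 library 1, and without the intensity trend 2 were higher and 9 lower. Tigit, an inhibitory receptor, was at 1344 and 1606 in Ctl against 8581 and 5904 in TSLPR WT Mi2 (log2 change 2.28 ± 0.23, adjusted p = 1.02e-05). The others that rose were Ctla4, Capg, Tnfrsf4 (OX40, 0.85) and Itgae (CD103, 0.88). Gpr83, a Treg-enriched receptor, fell from 4331 and 3799 in Ctl to 479 and 828 in TSLPR WT Mi2 (log2 change -2.69 ± 0.25, adjusted p = 8.67e-06). Nt5e, the ectoenzyme CD73, fell from 3608 and 4421 to 721 and 1450.4 (log2 change -1.97 ± 0.28, adjusted p = 0.000137). Lrrc32, the GARP protein that holds latent TGF-beta on the cell, fell from 7229 and 6028 to 1678 and 3012 (log2 change -1.55 ± 0.26, adjusted p = 0.000446). The transcription factors Ikzf4, Bach2, Satb1, Foxo3 and Foxo1 (-0.74) also fell, while the IL-2 receptor chains did not pass. Of these factors, Bach2, Satb1 and Foxo1 also stand on the list of resting genes below. Excluding TSLPR WT Mi2 library 1 brought the adjusted p to 0.12 for Tnfrsf4 and 0.513 for Itgae, without TSLPR WT Mi2 library 2 it was 0.0962 for Foxo1, and without the intensity trend it was 0.0668 for Tnfrsf4, 0.165 for Itgae and 0.059 for Foxo1.

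Genes of the resting, lymph node-homing state fell. Of 32 tested genes none was higher and 24 were lower, with a median log2 change of -1.22, and leaving out single libraries gave 19 to 24 lower. The 24 lower were 75% of the list, beside 13.0% of all autosomal genes tested. Reads of the list summed to 169733 and 141124 in Ctl and 83082 and 83425 in TSLPR WT Mi2. Bcl2, the survival protein (chr1:108434755-108610867, mm9), was at 10038 and 6422 in Ctl against 995 and 1923 in TSLPR WT Mi2 (log2 change -2.54 ± 0.29, adjusted p = 2.56e-05). Ly6c1, a surface protein of the Ly6 family, was at 1347 and 1119.6 in Ctl against 108 and 256 in TSLPR WT Mi2 (log2 change -2.88 ± 0.33, adjusted p = 2.57e-05). Both groups were far apart for these genes. Ms4a4b (-2.02) and Als2cl (-2.15) fell as well.

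Among resting genes named after their values were seen, Tcf7, the TCF-1 transcription factor, was at 9233 and 10649.7 in Ctl against 1722 and 4375 in TSLPR WT Mi2 (log2 change -1.85 ± 0.32, adjusted p = 0.000659). Lef1 (-0.94) and the lymph node homing receptor Ccr7 (-0.86) fell too. S1pr1, the receptor for lymph node exit, did not pass, at 10974 and 9419 in Ctl against 10387 and 12222 in TSLPR WT Mi2 (adjusted p = 0.645). When TSLPR WT Mi2 library 1 was left out the adjusted p was 0.0776 for Lef1 and 0.149 for Ccr7, and without the intensity trend it was 0.0703 for Ccr7.

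Migration genes moved both ways. Of 43 tested, 13 were higher (30.2%, beside 14.8% of all autosomal genes tested) and 10 lower (23.3%, beside 13.0%), with a median of 0.19, and 7 were higher without the intensity trend. Ccr10, a receptor for the skin chemokine CCL27, was at 69.8 and 137 in Ctl against 569 and 734 in TSLPR WT Mi2 (log2 change 2.71 ± 0.33, adjusted p = 3.99e-05). Fut7, which makes selectin ligands, was at 155 and 195 in Ctl against 816 and 623 in TSLPR WT Mi2 (log2 change 2.03 ± 0.27, adjusted p = 7.62e-05). Ccr9, the small intestine homing receptor, fell from 366 and 377 to 38.8 and 85.6 (log2 change -2.66 ± 0.36, adjusted p = 9.77e-05). Cxcr5, which guides cells to B cell follicles, fell from 1235 and 1706 to 251 and 313 (log2 change -2.37 ± 0.25, adjusted p = 1.39e-05).

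The remaining migration genes given here were named after their values were seen. The receptors Ccr8 (1.21), Ccr4 (1.05) and Ccr2 (1.67) rose. Ccr2 was uneven, at 2500.4 and 1282 in Ctl against 9968 and 3275 in TSLPR WT Mi2, and DESeq2 did not call it (adjusted p = 0.115). Itga4, an integrin chain used for entry into gut and inflamed tissue, fell from 7855 and 5668 to 1000.2 and 2425 (log2 change -2.10 ± 0.32, adjusted p = 0.000244). The gut receptor Gpr15 and the integrin genes Itga6, Itgb2 and Itgb3 fell as well. Removing TSLPR WT Mi2 library 1 gave an adjusted p of 0.0895 for Ccr4, and without the intensity trend it was 0.0547 for Ccr4 and 0.0882 for Ccr2.

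Genes of the interferon response fell. Of 54 tested genes none was higher and 44 were lower, with a median log2 change of -1.38, where 13.0% of the autosomal genes tested were lower, and leaving out single libraries gave 39 to 45 lower. The list's reads summed to 221758 and 179649 in Ctl against 101307 and 106965 in TSLPR WT Mi2 and 159066 in the TSLPR-negative library. The sequences before 2 of these genes are shown because the list moved together. The window search used the core of the interferon-stimulated response element, GAAANNGAA, on both strands, a motif chosen after the changes were known. It was found in 20 of the 30 called interferon genes with a window (66.7%), beside 9.76% of all genes with a window. Members of the list that were not called were not searched, so this share cannot be tied to the fall. A match describes letters only. The 250 bases before the start, chr19:34640639-34640888 for Ifit1 on the plus strand and chr4:156200819-156201068 for Isg15 on the minus strand (RefSeq, GRCm38.p6), hold 3 overlapping or separate matches each, in capitals.
Ifit1: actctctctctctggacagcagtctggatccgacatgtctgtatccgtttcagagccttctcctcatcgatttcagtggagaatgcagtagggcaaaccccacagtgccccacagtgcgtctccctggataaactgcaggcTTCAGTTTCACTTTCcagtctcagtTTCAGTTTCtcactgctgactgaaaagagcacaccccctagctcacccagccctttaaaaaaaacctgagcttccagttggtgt
Isg15: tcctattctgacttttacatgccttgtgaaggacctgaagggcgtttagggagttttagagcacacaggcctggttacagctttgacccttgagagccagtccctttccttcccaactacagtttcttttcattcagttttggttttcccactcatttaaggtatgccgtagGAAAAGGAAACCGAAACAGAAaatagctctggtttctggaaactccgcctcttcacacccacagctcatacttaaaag

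Ifit1, an antiviral protein that binds foreign RNA (chr19:34715379-34724499, mm9), was at 2748 and 702 in Ctl against 67.9 and 118 in TSLPR WT Mi2 and 919 in the TSLPR-negative library (log2 change -3.94 ± 0.46, adjusted p = 3.03e-05). Usp18, which removes ISG15 from proteins and dampens interferon signalling, was at 1304 and 724 in Ctl against 71.4 and 131 in TSLPR WT Mi2 (log2 change -3.31 ± 0.34, adjusted p = 1.18e-05). Isg15 itself, named after its values were seen, was at 767 and 366 against 88.2 and 139 (log2 change -2.25 ± 0.36, adjusted p = 0.000335). In all of these genes Ctl library 1 was the highest, and both TSLPR WT Mi2 libraries were below both Ctl libraries. Slfn1, a growth-regulatory gene of the Schlafen family, was at 6951 and 4649 in Ctl against 677 and 1063 in TSLPR WT Mi2 (log2 change -2.74 ± 0.26, adjusted p = 8.67e-06). The interferon-gamma-induced GTPase Iigp1 was at 3064 and 2214 against 291 and 634 (log2 change -2.60 ± 0.31, adjusted p = 3.29e-05).

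Genes of interferon signalling were called lower too. Irf7 (-2.03), a transcription factor that induces interferon genes, and the GTPase Gbp2 (-2.14) fell, and both were named after their values were seen. The receptor genes Ifnar1, Ifnar2 and Ifngr2 were called lower. Oas2 (-4.02), Oasl2 (-3.71), Ifit3 (-3.66) and Ifi44 (-3.34) were among the 15 largest falls once called genes averaging under 20 normalized reads were set aside, a limit that holds for every ranking of changes here. Ifng, the cytokine itself, was low everywhere, at 17.8 and 44.1 in Ctl against 0.880 and 5.97 in TSLPR WT Mi2 (log2 change -3.01 ± 0.77, adjusted p = 0.00953). Leaving out Ctl library 2 took the adjusted p to 0.11 for Ifng.

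Of 26 tested genes of class I antigen presentation, 10 were lower and 1 higher (median -0.31), with 5 lower without Ctl library 2, 5 without TSLPR WT Mi2 library 1 and 5 without the intensity trend. The 10 lower were 38.5% of the list, beside 13.0% of all autosomal genes tested, and the 1 higher was 3.85%, beside 14.8%. H2-K1, a classical class I heavy chain, was at 51525 and 74005 in Ctl against 25565 and 34373 in TSLPR WT Mi2 (log2 change -1.06 ± 0.27, adjusted p = 0.00851). Nlrc5, the activator of class I genes, was at 9788 and 11026 against 2826 and 4284 (log2 change -1.58 ± 0.23, adjusted p = 0.000168). The nonclassical H2-T24 (-1.79) and H2-Q4 (-1.13) fell, as did 6 more H2 genes. Class I genes are closely related copies, so how reads were shared between them is uncertain. The thiol reductase Ifi30 rose (1.38), and the peptide transporter and immunoproteasome genes did not pass. Without TSLPR WT Mi2 library 1 the adjusted p rose to 0.0922 for H2-K1.

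Transcripts of B cells were present in these sorted Tregs and were lower in TSLPR WT Mi2. All 26 tested B cell markers were called lower (median -2.16), and leaving out single libraries gave 18 to 26, DESeq2 24 and limma without the intensity trend 21. Of all autosomal genes tested, 13.0% were lower. Reads of the B cell markers summed to 28783 and 17135 in Ctl against 6836 and 9424 in TSLPR WT Mi2 and 7238 in the TSLPR-negative library, and no marker was at 0 in all libraries. Cd74, the class II invariant chain, was at 8763 and 5943 in Ctl against 3562 and 4219.7 in TSLPR WT Mi2 (log2 change -0.90 ± 0.23, adjusted p = 0.00884). H2-Aa, a class II chain, was at 2969 and 1470.1 against 408 and 932 (log2 change -1.76 ± 0.36, adjusted p = 0.0022), a call DESeq2 did not make (adjusted p = 0.0728), and Ralgps2 fell by 1.47 on the log2 scale. The part of B cell RNA in the falls of the interferon, class I, TNF family and Cxcr5 transcripts was not tested. In fits without Ctl library 1 the adjusted p was 0.0726 for Cd74, and without the intensity trend it was 0.0676 for Cd74 and 0.0523 for H2-Aa.

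Of the plasma cell markers, 3 of 11 were lower (Igj, Mzb1 and Slamf7) and 5 were higher, of which Prdm1 and Irf4 are also Treg genes. For this and the other marker lists below, the shares over all autosomal genes tested were 14.8% higher and 13.0% lower. Each of these lists has few tested genes. Igj, the joining chain of secreted antibody, was at 212 and 47.3 in Ctl against 6.17 and 5.97 in TSLPR WT Mi2 (log2 change -3.84 ± 0.67, adjusted p = 0.000727). Of 12 tested CD8 and NK cell markers, Gzmb was higher and 4 were lower, among them Cd8a at 553 and 539 in Ctl against 102 and 254 in TSLPR WT Mi2, and 1 was lower without Ctl library 2. Of 7 tested macrophage and neutrophil markers 1 was lower, and the list summed to between 182.6 and 470.9 reads over all 5 libraries. Of 15 tested dendritic cell markers 5 were higher and 1 lower, with 3 higher without TSLPR WT Mi2 library 1 and 3 lower without library 2. The keratinocyte list had 7 of its 16 genes at 0 in all libraries and none of 5 tested called. Innate lymphoid, mast cell and basophil markers had 5 of 8 higher (Il1rl1, Id2, Rora, Il17rb and Klrg1), or 3 without the intensity trend, helper T cell cytokines and factors had 1 of 6 higher and 3 lower, and stromal and endothelial markers had 1 of 3 higher and 1 lower. None of 5 tested red blood cell and platelet markers was called, and 3 were lower without Ctl library 1. Hbb-b1 of red blood cells was at 95.8 and 332 in Ctl against 198 and 79.6 in TSLPR WT Mi2.

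**Figure D4:**
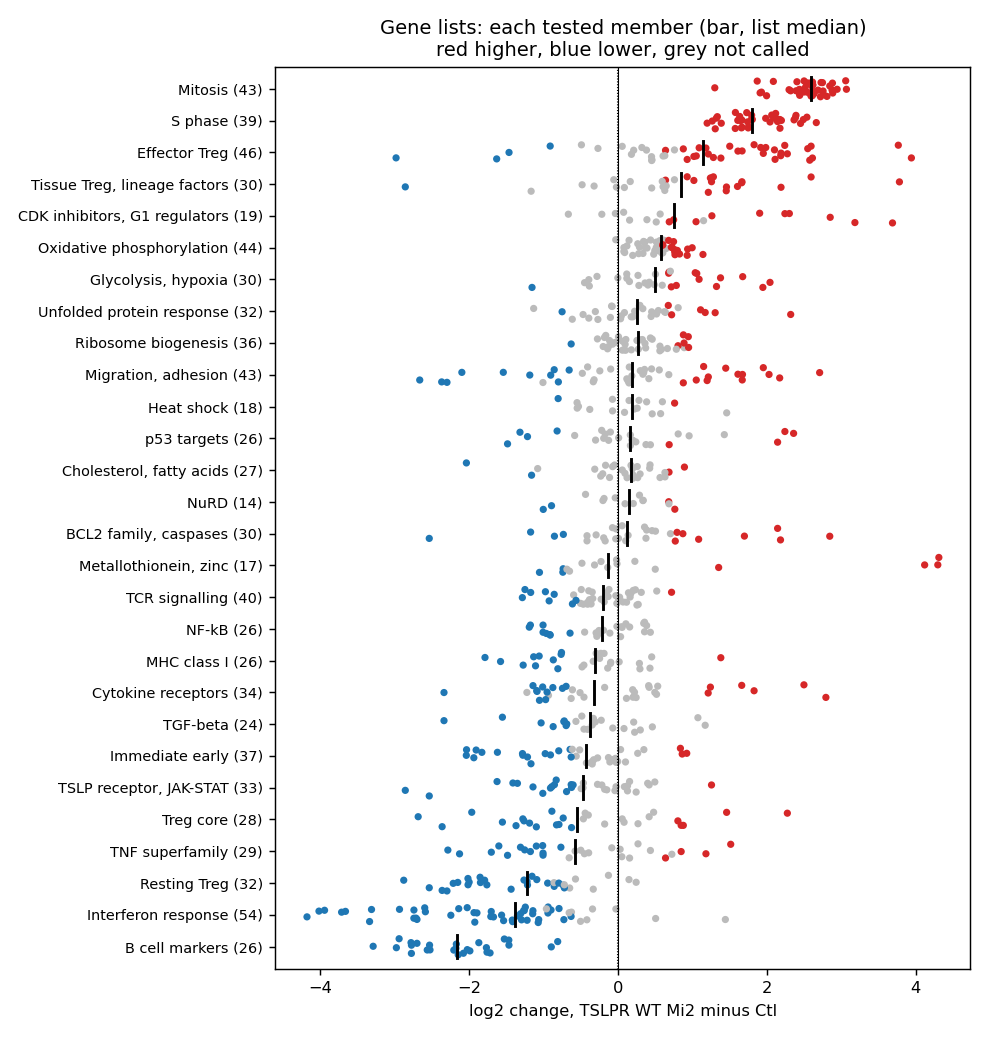
Log2 change, TSLPR WT Mi2 minus Ctl (horizontal axis), of each tested member of 28 gene lists (vertical axis, with the number tested), in red where called higher, blue where called lower and grey where not called, with a black bar at each list's median and a dotted line at the median of all genes. Medians run from 2.60 for mitosis to -2.16 for B cell markers.

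Among genes induced within minutes of T cell receptor signals, 3 of 37 tested were higher and 15 lower (median -0.42), with 9 lower without Ctl library 2 and 0 higher without TSLPR WT Mi2 library 2. The 3 and 15 genes were 8.11% and 40.5% of the list, beside 14.8% and 13.0% of all autosomal genes tested. Egr2, a transcription factor that restrains T cell activation, was at 1106 and 1442 in Ctl against 266 and 353 in TSLPR WT Mi2 (log2 change -2.04 ± 0.25, adjusted p = 4.26e-05). Egr3, its close relative, was at 1216 and 1165 against 230.2 and 436 (log2 change -1.91 ± 0.28, adjusted p = 0.000214). Egr1 was at 2682 and 2744 against 1134 and 1281 (log2 change -1.17 ± 0.20, adjusted p = 0.000666). All of these were lower in both TSLPR WT Mi2 libraries. Nr4a3, an orphan nuclear receptor induced by antigen, fell by 1.94 on the log2 scale, and Nr4a1, Nr4a2, Fosb and Jun were also called lower, while Junb, Klf10 and Gadd45b were called higher.

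T cell receptor signalling molecules had 8 of 40 genes lower and 1 higher (median -0.21), with 5 lower without TSLPR WT Mi2 library 1 and 5 without the intensity trend. The 8 lower genes were 20% of the list, beside 13.0% of all autosomal genes tested. Prkcq, the kinase PKC-theta, was at 9052 and 8619.9 in Ctl against 3136 and 4189.8 in TSLPR WT Mi2 (log2 change -1.28 ± 0.21, adjusted p = 0.00047). The Ras activator Rasgrp1 (-0.97) and Dgka, a kinase that removes the lipid Rasgrp1 needs (-1.17), fell. The CD3 chains, Lck, Zap70 and Lat were not called.

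Along the TSLP receptor, JAK and STAT5 pathway, 1 of 33 genes was higher and 15 were lower (median -0.47), with 9 lower without TSLPR WT Mi2 library 2 and 8 without the intensity trend. With all libraries 3.03% of the list was higher and 45.5% lower, beside 14.8% and 13.0% of all autosomal genes tested. At the receptor, neither Crlf2 nor Il7r passed. Among kinases, Jak1 was at 20825 and 19362 in Ctl against 12061 and 12821 in TSLPR WT Mi2 (log2 change -0.69 ± 0.21, adjusted p = 0.0254). The next genes were named after their values were seen. Stat5a (2502 and 3012 against 1729 and 2286) did not pass (adjusted p = 0.127), and Stat5b fell by 0.62. Cish, a feedback inhibitor that STAT5 induces, was at 3961 and 4733 in Ctl against 2907 and 3247 in TSLPR WT Mi2 and did not pass (adjusted p = 0.0848). Socs2 (-0.89) and Socs3 (-0.83), inhibitors of the same family, fell. Excluding Ctl library 1 brought the adjusted p to 0.0704 for Socs2, without TSLPR WT Mi2 library 1 it was 0.162 for Jak1 and 0.159 for Stat5b, without TSLPR WT Mi2 library 2 it was 0.112 for Socs3, and without the intensity trend it was 0.0725 for Jak1, 0.0966 for Stat5b, 0.0516 for Socs2 and 0.0691 for Socs3.

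Socs1, the inhibitor of JAK kinases with the smallest p of the family, was at 967 and 1597 in Ctl against 365 and 443 in TSLPR WT Mi2 (log2 change -1.62 ± 0.26, adjusted p = 0.000385). Bcl2 and Bcl6, both given above, were the largest falls on the list. Promoter windows of the called members were searched on both strands for TTCNNNGAA (STAT5), TGACTCA (AP-1), TGACGTCA (CRE) and GCGTGGGCG (EGR). The STAT5 motif was in 2 of 12 genes with a window on this list (16.7%) and in 0 of 12 of the immediate early list, beside 9.55% of all genes. The CRE motif was in 1 of 12 on each list, beside 2.03%. The AP-1 motif (5.95% of all genes) and the EGR motif (0.707%) were in 0 of 12 on both lists. These shares rest on few genes and describe letters in this window only.

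Of 34 tested cytokine receptor chains, 11 were lower (32.4%, beside 13.0% of all autosomal genes tested) and 6 higher (17.6%, near the 14.8% of all), with a median of -0.32. Il1r2, the decoy receptor for IL-1, was at 636 and 589.5 in Ctl against 2595 and 1827 in TSLPR WT Mi2 (log2 change 1.83 ± 0.23, adjusted p = 5.37e-05). Il9r was at 522 and 579.9 against 2261 and 1345 (log2 change 1.66 ± 0.25, adjusted p = 0.000249). Il23r and the signalling IL-1 receptor Il1r1, named after their values were seen, were low in Ctl and rose. Il23r was at 34.3 and 22.5 in Ctl against 285 and 91.6 in TSLPR WT Mi2 (log2 change 2.50 ± 0.50, adjusted p = 0.00191), with TSLPR WT Mi2 library 1 well above library 2. Il1r1 was at 28.4 and 4.01 in Ctl against 122 and 56.7 in TSLPR WT Mi2 (log2 change 2.79 ± 0.69, adjusted p = 0.00802). Il6ra (-1.09) and Il4ra, the shared receptor chain for IL-4 and IL-13 (-1.14, named after its values were seen), fell. When Ctl library 2 was left out the adjusted p was 0.081 for Il1r1, and without the intensity trend it was 0.0583 for Il1r1.

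The TNF and TNF receptor families had 4 of 29 genes higher and 13 lower (median -0.58), with 2 higher without Ctl library 1, 1 without TSLPR WT Mi2 library 1 and 1 without the intensity trend. The 4 higher are 13.8% of the list, near the 14.8% of all autosomal genes tested. The 13 lower are 44.8%, beside 13.0%. Of the ligands, Tnf, Lta, Ltb, Tnfsf8, Tnfsf11 and Fasl were called lower. Tnfsf8, CD30 ligand, was at 915 and 1057 in Ctl against 137 and 295 in TSLPR WT Mi2 (log2 change -2.29 ± 0.32, adjusted p = 0.000119). Lta, lymphotoxin alpha, was at 1131 and 1949 against 228 and 504 (log2 change -2.13 ± 0.34, adjusted p = 0.000345), and Tnf fell by 1.18. The death receptor Fas was at 1020.0 and 876 against 336 and 338 (log2 change -1.48 ± 0.23, adjusted p = 0.000284), and Tnfrsf26 fell by 1.31. The receptors that rose were Tnfrsf1b, Tnfrsf4, Tnfrsf13b and Tnfrsf9 (0.64, named after its values were seen). Removing TSLPR WT Mi2 library 1 gave an adjusted p of 0.287 for Tnfrsf9, and without the intensity trend it was 0.132 for Tnfrsf9.

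Downstream, 8 of 26 NF-kB genes were lower and none higher (median -0.22), with 5 lower without Ctl library 1 and 4 without the intensity trend. The 8 lower NF-kB genes were 30.8% of their list, beside 13.0% of all autosomal genes tested. They included Ikbke (-1.19), Traf1 (-1.01) and Cd83 (-0.91), while the NF-kB subunits other than Rel did not pass. Of 24 TGF-beta pathway genes none was higher and 8 were lower (median -0.38), with 5 lower without Ctl library 2, 5 without TSLPR WT Mi2 library 1, 4 without TSLPR WT Mi2 library 2 and 4 without the intensity trend. The 8 lower TGF-beta genes were 33.3% of their list, beside the same 13.0%. Tgfbr3, the coreceptor betaglycan, was at 551 and 561 in Ctl against 59.1 and 201 in TSLPR WT Mi2 (log2 change -2.34 ± 0.42, adjusted p = 0.000898). The feedback inhibitors Skil (-1.03) and Smad7 (-0.87), which TGF-beta signalling induces, fell. Leaving out TSLPR WT Mi2 library 2 took the adjusted p to 0.0516 for Smad7.

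Of 30 tested survival and death genes, 8 were higher (26.7%, beside 14.8% of all autosomal genes tested) and 4 lower (13.3%, near the 13.0% of all), with a median of 0.12, 5 higher without TSLPR WT Mi2 library 1 and 2 lower without library 2. Birc5, survivin, which also acts in mitosis, was at 524 and 277 in Ctl against 2603 and 2894 in TSLPR WT Mi2 (log2 change 2.85 ± 0.27, adjusted p = 8.95e-06). Pmaip1, the NOXA protein that blocks MCL-1, was at 266 and 201 against 1067 and 988 (log2 change 2.15 ± 0.25, adjusted p = 2.97e-05). Among genes named after their values were seen, Mcl1 (-0.85) and the pro-apoptotic Bcl2l11, BIM (-1.17), fell, while Bcl2l1, BCL-XL, did not pass (adjusted p = 0.202). Of 26 tested p53 target genes 4 were higher and 4 lower (15.4% each, near the shares of all genes), with Gtse1 at 2.36 and the stress sensor Sesn1 at -1.32. Without TSLPR WT Mi2 library 2 the adjusted p rose to 0.0768 for Mcl1.

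Metallothioneins, small proteins that bind zinc and copper, rose. Mt1 was at 33.1 and 19.2 in Ctl against 558 and 477 in TSLPR WT Mi2 and 307 in the TSLPR-negative library (log2 change 4.30 ± 0.34, adjusted p = 6.45e-06). Mt2 was at 8.28 and 5.61 in Ctl against 157 and 116 in TSLPR WT Mi2 (log2 change 4.12 ± 0.45, adjusted p = 1.73e-05). Mt3 was at 4.73 and 4.01 against 101 and 109.5 (log2 change 4.31 ± 0.47, adjusted p = 1.96e-05). The groups were far apart for each. Among metallothionein and zinc transporter genes tested, 23.5% were higher and 17.6% lower, beside 14.8% and 13.0% of all autosomal genes tested. On the list of 17 tested metallothionein and zinc transporter genes, the zinc importer Slc39a4 also rose (1.35), and Slc30a1, Slc30a4 and Slc39a3 were called lower, of which 1 was called without Ctl library 1, 0 without TSLPR WT Mi2 library 1 and 0 without the intensity trend.

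The core of the metal response element, TGCACNC or TGCGCNC, chosen after the changes were known, was in the windows of all 3 metallothionein genes and in 28.2% of all genes with a window. Here too a match describes letters only. The 250 bases before the Mt1 start, chr8:94178839-94179088 on the plus strand (RefSeq, GRCm38.p6), hold 1 of the 3 matches of its window, in capitals.
Mt1: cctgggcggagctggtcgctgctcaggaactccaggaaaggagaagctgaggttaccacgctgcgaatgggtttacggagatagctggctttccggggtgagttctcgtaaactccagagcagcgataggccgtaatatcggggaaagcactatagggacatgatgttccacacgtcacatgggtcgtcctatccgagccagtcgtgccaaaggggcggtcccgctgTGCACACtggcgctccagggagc

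Of the NuRD complex, 2 of 14 tested genes were called in each direction (14.3%, near the 14.8% and 13.0% of all autosomal genes tested). The higher genes were Mbd2 (0.68) and Rbbp4 (0.76), and the lower genes were Zmynd8 (-1.0) and Chd3 (-0.89), an ATPase related to CHD4. No gene of the list was higher without TSLPR WT Mi2 library 2, and none without the intensity trend. In fits without Ctl library 2 the adjusted p was 0.0632 for Chd3, without TSLPR WT Mi2 library 1 it was 0.13 for Mbd2, without TSLPR WT Mi2 library 2 it was 0.109 for Rbbp4, and without the intensity trend it was 0.0834 for Mbd2 and 0.0563 for Rbbp4.

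Outside the lists, the largest rises were of genes almost silent in Ctl. Ranbp17, the gene of a nuclear transport receptor, was counted on a transcript that RefSeq classes as non-coding. That transcript had 1 read in the Ctl libraries together and 173 in the TSLPR WT Mi2 libraries. The ratio was 169, with a 95% exact interval of 30.0 to 6723 that covers counting error only. Dact2, a modulator of Wnt and TGF-beta signals, had 2 reads against 88, a ratio of 43.0 (11.6 to 361). Slc17a8, a vesicular glutamate transporter, was at 1.18 and 2.41 in Ctl against 90.0 and 46.8 in TSLPR WT Mi2. Amotl1, an angiomotin of the Hippo pathway, was at 27.2 and 11.2 against 349 and 495 (log2 change 4.49 ± 0.42, adjusted p = 8.67e-06). Nmur1, the neuromedin U receptor, was at 0 and 11.2 against 99.7 and 44.8 (log2 change 4.28 ± 0.87, adjusted p = 0.00224), a call DESeq2 did not make (adjusted p = 0.159). Nos1, neuronal nitric oxide synthase, was at 4.73 and 8.02 against 116 and 161 (log2 change 4.26 ± 0.47, adjusted p = 1.93e-05). These genes were low or absent in both Ctl libraries and present in both TSLPR WT Mi2 libraries. The rest of the 15 largest rises included Maats1 (4.51), Oit3 (4.50), Clgn (4.19), the cadherin Fat1 (4.16) and the adhesion receptor Lphn2 (4.15).

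The largest falls outside the interferon and B cell lists included Ntn4, a laminin-related netrin, at 88.8 and 140.3 in Ctl against 0.880 and 25.9 in TSLPR WT Mi2 (log2 change -3.99 ± 0.85, adjusted p = 0.00305), which DESeq2 did not call (adjusted p = 0.164). Slc16a5, a monocarboxylate transporter, was at 129 and 200.5 against 6.17 and 26.9 (log2 change -3.52 ± 0.56, adjusted p = 0.000328). Rec8, a meiotic cohesin subunit, was at 73.4 and 234 against 14.1 and 7.96 (log2 change -3.51 ± 0.53, adjusted p = 0.000245). Adh1, an alcohol and retinol dehydrogenase, was at 60.4 and 61.8 against 0.880 and 18.9 (log2 change -3.34 ± 0.81, adjusted p = 0.00699). For Ntn4 and Adh1, TSLPR WT Mi2 library 1 held 1 read and library 2 was well above it. Excluding the intensity trend brought the adjusted p to 0.0532 for Ntn4 and 0.0607 for Adh1.

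The most abundant called genes by normalized reads, a measure that grows with transcript length, were structural or immune. The actin bundler Lcp1 was at 28047 and 26979 in Ctl against 46074 and 57942 in TSLPR WT Mi2 (log2 change 0.91 ± 0.24, adjusted p = 0.0109). The tubulin Tubb5 rose by 1.20, and the intermediate filament Vim, at 15463 and 15286 against 51497 and 54309, by 1.78. Serinc3 was at 23214 and 14509.8 in Ctl against 59360.0 and 27067 in TSLPR WT Mi2, with TSLPR WT Mi2 library 2 close to Ctl library 1 (log2 change 1.13 ± 0.33, adjusted p = 0.0204). On the falling side, Samhd1, which degrades nucleotides and blocks retroviruses, was at 32028 and 27917 against 15826 and 14701 (log2 change -0.97 ± 0.22, adjusted p = 0.0047). The cytoskeletal linker Macf1 was at 28320.1 and 27838 against 12447 and 11098 (log2 change -1.26 ± 0.21, adjusted p = 0.000605), and Hmha1 fell by 0.69. When Ctl library 2 was left out the adjusted p was 0.272 for Hmha1, without TSLPR WT Mi2 library 1 it was 0.258 for Serinc3, without TSLPR WT Mi2 library 2 it was 0.169 for Lcp1 and 0.0578 for Samhd1, and without the intensity trend it was 0.118 for Serinc3 and 0.116 for Hmha1.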

How the data were processed

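RNA from sorted Tregs was sequenced, and the labels name 2 library kits without saying which was used for which sample, so no use of strand is assumed and overlapping genes cannot be told apart. The values used are signal on a read-count scale: per the file headers, the authors counted reads over exons of RefSeq transcripts on mm9 with HOMER and normalized them with DESeq2 in a command that names 7 libraries, of which 5 are columns of the deposited table. Per the submitters' processing notes, bcl2fastq 1.8.3, STAR and DESeq2 were used and mm9 and mm10 are named. In each deposited column 100% of the values were whole multiples of 1 read within 0.05 reads, and all columns had 1 common total, so depths (21849381 to 32238992 reads) were recovered.

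Symbols with a mean of at least 10 over the 5 libraries (12206 on all chromosomes) were fitted as group means of log2(value + 1) with limma 3.58.1 with an intensity trend in R 4.3.3. The contrast was TSLPR WT Mi2 minus Ctl, with 2 residual degrees of freedom and Benjamini-Hochberg adjustment over the 12206 genes, and genes on chromosomes X and Y were then left out. Fold changes are on the log2(value + 1) scale, which understates the change of low genes, and ± gives the SE. Named genes were the 15 largest rises and falls with a mean of at least 20 and no overlap between groups, the 5 most abundant called genes in each direction, at most 4 members of every list taken by p, the 3 most abundant members of each marker list, and a fixed set (Crlf2, Il7r, Il2ra, Ctla4, Ikzf2, Gata3, Il1rl1, Chd4, Foxp3); others are marked where they appear or named without values as called members of a list. Some genes that the rule names are not reported here. The members and lists were chosen with earlier results of these data known, and the lists share some genes. Alternatives included edgeR 4.0.16, DESeq2 1.42.0 and voom on the recovered reads, other pseudocounts, filters and scalings, a replicate block, and leaving out each library. The same-numbered libraries were not paired. On simulated data with 12308 genes and 1 dispersion of 0.04 for all, 100 genes of higher mean were changed at each fold. There, 39% of 2-fold and 100% of 4-fold changes were recovered, with 7 false calls of 146. The real data have a far larger share of called genes and include lower genes, so these rates do not carry over to them. Promoter windows (32851 of them, for 27025 genes) are RefSeq's on GRCm38.p6 and were matched by symbol only.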

Additional observations from a re-analysis of the deposited data

How the results depend on the processing

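The counts of 1744 genes higher and 1540 lower were 1747 and 1549 with edgeR's quasi-likelihood test and 1622 and 1475 with DESeq2, and of the 3284 called genes 3214 and 3020 were called there too. Leaving out 1 library at a time gave 1347 to 1406 higher and 1081 to 1292 lower, in fits where the lone library of a group is assumed to vary like the others. Without an intensity trend in limma 1340 were higher and 1019 lower. With no filter on low values limma called 0 and 0 genes of 16831, where 2675 were higher and 2220 lower at an unadjusted p under 0.05. In that fit 205 genes had no spread and the prior degrees of freedom fell from 12.54 to 1.744. edgeR with no filter, an alternative chosen after seeing the data, called 1982 higher and 1749 lower. With a replicate block 2212 were higher and 2032 lower, although same-numbered libraries did not deviate together (correlation 0.0917), so the numbers are not read as pairs. Other scalings, filters, pseudocounts, voom and transcript choices kept both counts within 1.5 times, and calls that ended when 1 library was left out were 18 to 25 of the named genes' calls per library. Genes that were not called changed sign when single libraries were left out, with log2 changes from -0.05 to 0.12 for Xbp1, -0.15 to 0.08 for Ly75 (0.06 without Ctl library 1), -1.78 to 0.22 for Lyz2, -0.27 to 0.31 for Krt10, -1.40 to 0.39 for Hbb-b1 (0.14 without TSLPR WT Mi2 library 2), -1.56 to 0.53 for Hba-a1 and Hba-a2 (0.09 without that library), -0.61 to 1.10 for Il7r (-0.49 without Ctl library 2), -0.19 to 0.36 for Ikzf2 (-0.17 without TSLPR WT Mi2 library 1), -0.05 to 0.22 for Gata3 and -0.22 to 0.15 for Chd4 (0.03 without that library). The cause of these shifts was not tested. With 2 libraries a group, changes under 2-fold can be missed, at a rate that the simulation does not settle.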

Other observations

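Gene families grouped by the start of their symbols were picked after the values were seen and are given as counts. The shares of all autosomal genes tested were 14.8% higher and 13.0% lower. Some members also stand on the lists above (Anxa1 and Anxa2, Parp9 and Parp14, and Psmb8, Psmb9 and Psmb10). Of 8 tested Gimap genes, GTPases of lymphocyte survival, 5 were called lower and none higher (median log2 change -0.83). Gimap4 was at 16937 and 13584 in Ctl against 7614 and 7045 in TSLPR WT Mi2 (log2 change -1.05 ± 0.21, adjusted p = 0.00213), and Gimap6 fell by 0.84. Of 12 tested Parp genes 8 were lower and 1 higher (median -0.91). Of 9 tested annexins 5 were higher and none lower (median 1.01), among them Anxa1, at 50.9 and 62.6 in Ctl against 349 and 194 in TSLPR WT Mi2 (log2 change 2.19 ± 0.36, adjusted p = 0.000475). Of 13 Psmd and 10 Psmb proteasome genes 6 and 5 were higher and none lower, with Psmb5, a catalytic subunit, at 248 and 237 against 414 and 677 (log2 change 1.12 ± 0.28, adjusted p = 0.00861). Of 47 mitochondrial ribosome Mrpl genes 11 were higher, where 14.8% of all autosomal genes tested were higher, and none lower. In all of these families Ctl and TSLPR WT Mi2 differ also in the sex-linked transcripts given in the report, and the part of sex was not tested. Removing TSLPR WT Mi2 library 1 gave an adjusted p of 0.0611 for Gimap6, and without TSLPR WT Mi2 library 2 it was 0.126 for Psmb5.

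Ncam1 and Ank3, genes better known from neurons, were picked after their values were seen. Ncam1, a cell adhesion molecule, was at 14.2 and 27.3 in Ctl against 357 and 251 in TSLPR WT Mi2 and 92.9 in the TSLPR-negative library (log2 change 3.86 ± 0.40, adjusted p = 1.39e-05). Ank3, ankyrin-G, was at 18.9 and 15.2 against 296 and 275 and 42.2 (log2 change 3.99 ± 0.38, adjusted p = 8.95e-06). The 8 Ugt1a and 12 Pcdhga symbols that all rose share exons, so each set repeats the same reads.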
